A study of Mus musculus with 4 samples.

Results

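IRF4 ChIP-seq peaks that were listed in Junb-deficient regulatory T (Treg) cells and had no counterpart in Junb-sufficient cells, at places where JunB itself was not listed, are described here. The members were chosen by peak positions alone: they are the peaks of the Junb-deficient IRF4 list that overlapped, by at least 1 bp, no IRF4 peak and no JunB peak of Junb-sufficient cells. There were 8058 of them among 29033 peaks of that list, or 27.8%, and 103355 peaks in the 4 lists of the series. BATF peaks of Junb-sufficient cells split them into 221 members at a BATF peak and 7837 off BATF peaks.

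The study asked how JunB shapes the binding of its partners BATF and IRF4 in effector Treg cells. Splenic CD4+CD25+ Treg cells of C57BL/6 mice were stimulated in culture with antibodies to CD3 and CD28 plus IL-2, for 60 h, then crosslinked with formaldehyde, cut with micrococcal nuclease and immunoprecipitated. JunB, BATF and IRF4 were each profiled in Junb-sufficient cells, and IRF4 also in Junb-deficient cells, with 1 library per group in the lists analysed here and therefore no replicate, although the study's methods say that each ChIP-seq was repeated. In the study's methods all ChIP-seq cells carried floxed Junb alleles (Junb fl/fl), and the deficient cells had Cd4-Cre in addition, while the sample labels write Foxp3cre with JUNB+/+ for the sufficient and JUNBFl/Fl for the deficient cells. Cre under Cd4 deletes a floxed gene in all T cells and not in Treg cells alone. Both groups came from young adult, sex-matched mice, and the number of mice pooled per library is not given in the sources used here. One label field names the BATF and IRF4 antibodies the other way round for Junb-sufficient cells, and the sample titles were followed. With the antibodies exchanged, the same rule gives 16271 members, or 56.0% of the list.

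IRF4, interferon regulatory factor 4, is induced by T cell receptor signals and is needed for effector Treg cells. Alone it binds DNA weakly. It reaches most of its sites beside a partner, at AP-1-IRF composite elements (AICE) with BATF and a Jun protein, or at ETS-IRF composite elements (EICE) with an ETS factor. Pairs of IRF core sites form interferon-stimulated response elements (ISRE), which IRF4 can bind when it is abundant. JunB is an AP-1 subunit that pairs with BATF, and the palindrome TGANTCA is the AP-1 site.

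The sequences below show what kinds of DNA the members covered, 1 high-placed member for each motif. Each is the mm9 reference, plus strand, from 100 bp before to 100 bp after the peak centre, with the matched motif in capitals. The members named by motif are those that stood highest in the list among the members of their subgroup with that match. The GATA member was added to this choice after the values were seen.
ISRE, off BATF, chr15:5467867-5468067: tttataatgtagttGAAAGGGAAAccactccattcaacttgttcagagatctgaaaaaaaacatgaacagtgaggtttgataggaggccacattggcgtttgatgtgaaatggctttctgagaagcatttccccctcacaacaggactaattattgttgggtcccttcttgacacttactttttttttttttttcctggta
AP-1, off BATF, chr10:117897552-117897752: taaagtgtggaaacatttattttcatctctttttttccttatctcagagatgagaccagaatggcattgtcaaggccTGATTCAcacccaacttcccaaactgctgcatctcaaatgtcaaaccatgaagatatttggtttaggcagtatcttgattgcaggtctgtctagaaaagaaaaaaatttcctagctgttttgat
AICE, off BATF, chr4:94703320-94703520: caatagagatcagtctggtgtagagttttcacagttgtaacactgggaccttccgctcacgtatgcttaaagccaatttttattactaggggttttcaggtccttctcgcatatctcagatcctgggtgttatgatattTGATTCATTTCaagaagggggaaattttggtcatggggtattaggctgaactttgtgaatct
EICE, off BATF, chr6:29788502-29788702: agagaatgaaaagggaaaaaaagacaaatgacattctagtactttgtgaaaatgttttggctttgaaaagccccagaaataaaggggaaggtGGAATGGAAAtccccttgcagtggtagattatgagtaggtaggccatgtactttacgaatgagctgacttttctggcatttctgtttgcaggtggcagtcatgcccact
GATA, off BATF, chr11:86394852-86395052: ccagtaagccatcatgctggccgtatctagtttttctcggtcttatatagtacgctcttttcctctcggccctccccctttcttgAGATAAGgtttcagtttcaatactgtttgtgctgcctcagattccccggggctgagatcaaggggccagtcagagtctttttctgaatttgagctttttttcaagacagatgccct
AP-1, at BATF, chr19:37027533-37027733: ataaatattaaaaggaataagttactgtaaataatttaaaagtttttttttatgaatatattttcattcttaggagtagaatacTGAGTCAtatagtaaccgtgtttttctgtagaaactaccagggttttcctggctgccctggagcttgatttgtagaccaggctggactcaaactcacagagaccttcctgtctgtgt
AICE, at BATF, chr11:59925280-59925480: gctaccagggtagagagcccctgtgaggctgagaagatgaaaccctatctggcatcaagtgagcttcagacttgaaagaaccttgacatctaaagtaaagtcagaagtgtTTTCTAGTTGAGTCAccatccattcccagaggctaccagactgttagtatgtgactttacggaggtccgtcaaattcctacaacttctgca

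The ISRE member lay in intergenic sequence 273.8 kb upstream of the nearest protein-coding transcription start site (TSS), that of Ptger4, a prostaglandin E2 receptor. It stood at place 1136 of the list, and its match is a pair of GAAA cores. The AP-1 member lay in intergenic sequence 19.5 kb downstream of the TSS of Ifng, the gene of interferon-γ, at place 2041. The AICE member, at place 2618, was intergenic and 15.4 kb downstream of the TSS of Jun, another AP-1 subunit. The EICE member was in an intron, 15.2 kb upstream of the nearest TSS, that of Ahcyl2, at place 1863. The GATA member was intergenic, 5.43 kb downstream of a TSS of Vmp1, an autophagy gene, at place 1770. Its window also held an ISRE match, beside the GATA match and not set in capitals. The window of the AP-1 member likewise held a GATA match. Both members at BATF peaks were intronic, 27.1 kb downstream of the TSS of Btaf1 at place 4252 and 6.70 kb downstream of that of Rai1 at place 6213. Gaps to the nearest Junb-sufficient IRF4 peak were 129 bp for the EICE, 528 bp for the AICE and 1136 bp for the AP-1 member off BATF. They were 5183 bp for the GATA, 16974 bp for the ISRE, 13347 bp for the Rai1 and 32820 bp for the Btaf1 member. A BATF peak lay 134 bp from the EICE and 519 bp from the AICE member off BATF, and a JunB peak 86 bp from the Rai1 member. All 7 are examples, and most members held no match to these motifs, as the counts further on show.

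Members were rare among the first peaks of the list and common among the last. The order of the list is not named in its header. Members made up 49 of the first 2904 peaks (1.69%) and 1663 of the last 2903 (57.3%), and over 10 equal parts of the list the share rose from each part to the next. The first member stood at place 361, near Gramd1b, and the median member at 72.8% of the way down. Only 1769 members (21.95%) were in the first 50% of the list. For comparison, the 10794 Junb-deficient IRF4 peaks off JunB that did overlap a Junb-sufficient IRF4 peak, called kept peaks here, had their median at 53.1%. The mirror group, 7896 peaks of Junb-sufficient cells that lacked both a Junb-deficient IRF4 peak and a JunB peak, was 25.4% of 31093 and had its median at 77.6% of its own list. Both sets of genotype-restricted peaks therefore came mostly from the lower parts of their lists. Since place went with membership, odds ratios against kept peaks were taken within 20 strata of place.

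**Figure D1:**
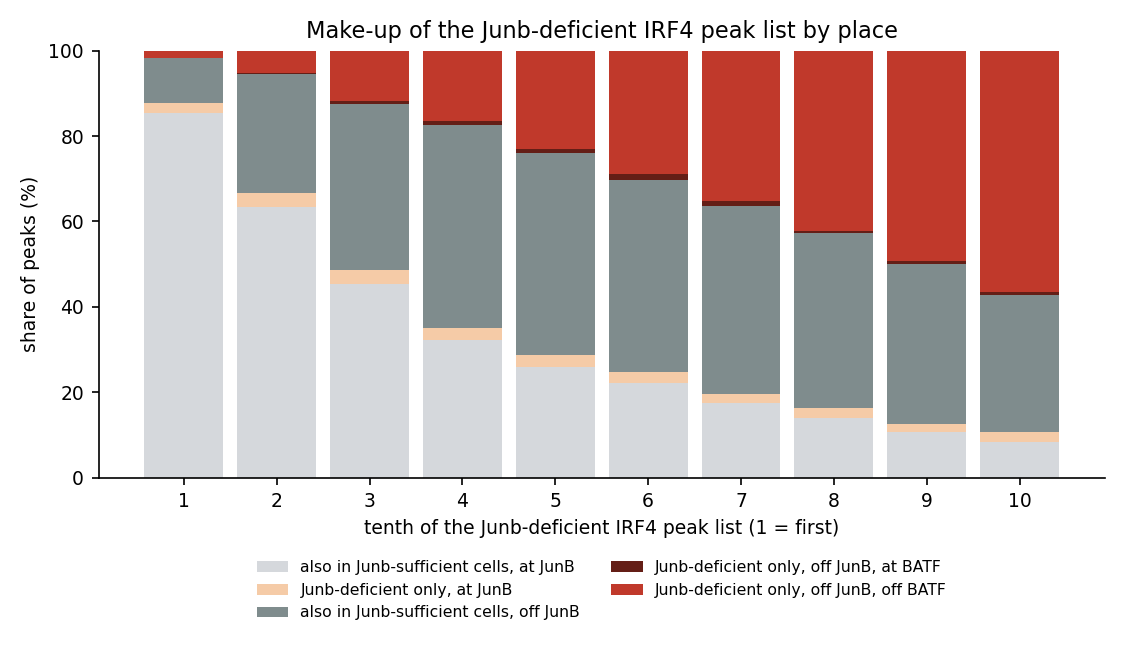
The bars split each of 10 equal parts of the Junb-deficient IRF4 list (x axis, 1 is the first) into classes of peaks (y axis, % of peaks). Red and dark red are the members off and at BATF peaks, which grew from 1.69% of the first part to 57.3% of the last, while peaks also listed in Junb-sufficient cells at JunB (light grey) shrank.

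The libraries were of similar depth. The fewest tags were recorded for Junb-deficient IRF4 (21127029) and the most for JunB (27399986). Counting at most 1 tag per position, the peak caller used 17.9 M tags for Junb-deficient and 17.3 M for Junb-sufficient IRF4. IRF4 peaks needed 19 tags in both genotypes, and 11.15% and 12.76% of tags fell in peaks. A filter against the surrounding 10 kb removed 36.2% and 37.4% of candidate peaks, respectively, and its part in membership was not tested. The JunB list was called differently, with peaks of 150 bp against 605 and 612 bp for IRF4, and a limit of 10 tags. The local filter removed 5.25% of JunB candidates. The deposited score was 1 for every peak, so heights could not be compared, and a member is a peak that passed the caller's limits in one genotype and not in the other. With 1 library per genotype, the effect of Junb deletion and differences between the libraries cannot be told apart. No list held a peak over Junb, so the deletion was not checked. The 95% intervals given are over peaks and cover counting error only. No p-value was computed.

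The edge of the rule held few peaks. The median gap from a member to the nearest Junb-sufficient IRF4 peak was 12.3 kb. The gap was under 50 bp for 11 members, whose median place was 75.7% of the list. On the other side, 15 peaks off JunB overlapped a Junb-sufficient IRF4 peak by 1 to 50 bp and were counted as kept, with a median place of 65.8%. Centres of 207 members (2.57%) lay within 1224 bp of a Junb-sufficient IRF4 centre, the distance within which the caller lists no second peak of the same library. Of all members, 3403 (42.2%) lay within 10 kb of a Junb-sufficient IRF4 peak. Within the same distance, 2377 members (29.5%) had a JunB peak, and 791 (9.82%) had another member. These shares were not counted for other groups of peaks, so they describe the members only.

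BATF was listed at few members with the antibodies as titled. It was measured only in Junb-sufficient cells, from the same kind of cells as the lists that define the members. A BATF peak overlapped 2.74% of members (95% interval 2.40 to 3.12), against 21.9% of kept peaks (21.1 to 22.7) and 10.0% of the mirror group (9.35 to 10.7). Within strata of place the odds ratio against kept peaks was 0.137 (0.119 to 0.158). Kept peaks and the mirror group were chosen for an IRF4 peak of Junb-sufficient cells, and members for lacking one. The BATF contrasts are thus not independent of the choice and are descriptions only. The 221 members at BATF stood higher in the list, with 86 of them (38.9%) in the first 50% against 21.5% of those off BATF. The share at a BATF peak was 4.86% among members in the first 50% of the list, and 51.8% with the BATF and IRF4 lists exchanged.

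Among the members at BATF the highest, at place 2221, was a promoter peak 0.664 kb upstream of the TSS of Tgif1, a repressor of TGF-β and SMAD signalling. The second, at place 2508, was intergenic and 254.6 kb downstream of Zfp36l1, which encodes an mRNA-decay factor. The next lay in an intron 73.0 kb from the TSS of Efna5, an ephrin ligand, another 49.4 kb from Dad1, a subunit of the oligosaccharyltransferase, and the last of the 5 highest 1.78 kb downstream of the TSS of Dusp6, an ERK phosphatase. None of these 5 windows held an AP-1, AICE, EICE or ISRE match.

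The highest members off BATF often stood close to other peaks. The first, in an intron of Gramd1b at place 361, was 407 bp from a Junb-sufficient IRF4 peak, 665 bp from a JunB peak and 396 bp from a BATF peak. The second, at place 708, was intergenic and 25.5 kb upstream of Rnf19b, with a Junb-sufficient IRF4 peak at 1636 bp. The next lay in introns at place 1008, near Rab8b, a vesicle-traffic GTPase, and place 1109, near Celf2, an RNA-binding protein, the latter 72 bp from a JunB peak. The last of the 5 was the ISRE member near Ptger4 printed above, 16974 bp from the nearest Junb-sufficient IRF4 peak.

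The members differed from both comparison groups in sequence. AP-1 matches were few in members, whereas ISRE and GATA matches were more frequent than in the mirror group and in kept peaks. The ISRE excess over kept peaks was small, at 1.29 points (0.339 to 2.24). Matches were counted on both strands from 100 bp before to 100 bp after each peak centre, called its window, and windows 5 kb downstream that were clear of peaks gave the background. AP-1 was TGANTCA. AICE was GAAA followed directly by TGANTCA or TGANTAA, or TTTC, 4 free bases and either of these. EICE was GGAA, 2 free bases and GAAA, and ISRE was GAAA, 2 free bases and GAAA. GATA was AGATAAG, RUNX was TGTGGTT, ETS was CNGGAAGT, and NF-kB was GGGA, 1 free base and TTTCC. AICE contains AP-1 where its last bases are TGANTCA, so these counts overlap.

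AP-1 matches were in 730 members, or 9.06% (95% interval 8.44 to 9.71), and in 5.81% of their downstream windows. The share was 14.9% in kept peaks and 32.1% in the mirror group. Members thus held 23.1 percentage points fewer than the mirror group, as the difference was -23.08 (-24.29 to -21.87). Against kept peaks within strata the odds ratio was 0.497 (0.451 to 0.548). Both intervals exclude equality, and kept peaks at JunB, for reference, held AP-1 in 40.8%.

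AICE matches, the sites that IRF4 shares with BATF and Jun proteins, were in 126 members (1.56%), in 1.95% of kept peaks and in 3.32% of the mirror group, against 0.319% of the members' downstream windows. They were therefore fewer in members than in the mirror group (difference -1.75 points, -2.24 to -1.28) but still above the background. The odds ratio against kept peaks was 0.750 (0.593 to 0.949).

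ISRE matches, pairs of IRF core sites, were in 1045 members, or 12.97% (12.2 to 13.7), against 3.13% downstream. The mirror group held them in 7.13%, 5.84 points less (4.91 to 6.77). Kept peaks held them in 11.7%, and the odds ratio of members within strata was 1.28 (1.17 to 1.41). Among peaks of the first 50% of the list alone, however, it was 1.00 (0.855 to 1.17). At promoters ISRE shares were 5.47% in members and 5.87% in kept peaks, and elsewhere 14.9% and 14.1%. EICE matches did not separate the groups, with 3.59% in members, 4.04% in kept peaks and 3.58% in the mirror group. The difference of EICE shares from the mirror group was 0.0024 points, with an interval from -0.577 to 0.581.

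GATA matches, the site of GATA factors such as the Treg and T helper factor GATA3, were in 561 members (6.96%, 6.42 to 7.54). The share was 4.87% in kept peaks, 3.03% in the mirror group and 2.74% downstream of members. Only the mirror group was near the background. The difference from it was 3.94 points (3.27 to 4.61), and the odds ratio against kept peaks was 1.72 (1.51 to 1.96). GATA matches were also in 7.13% of Junb-deficient-only peaks at JunB and in 6.06% of kept peaks at JunB.

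Further motifs separated the members from 1 or both of the groups. RUNX matches, for the RUNX1 class of T cell factors, were in 12.6% of members, 11.8% of kept peaks and 8.95% of the mirror group. Outside promoters they were in 14.3% of members and 14.5% of kept peaks, and kept peaks at JunB held them in 13.2%. NF-kB matches were in 1.65% of members, 1.28% of kept peaks and 0.367% of the mirror group. The odds ratio between the first and the last was 4.55 (3.04 to 6.81) without strata. It was 4.27 (2.85 to 6.41) with strata of place in each group's own list, which is not a common scale. ETS matches were in 6.76%, 9.44% and 6.88% in the same order, and the odds ratio against kept peaks was 0.671 (0.599 to 0.751). CTCF matches (CC, 2 free bases, CTNGTGG) were in 2.80%, 2.72% and 5.71%. SP/KLF matches (GGGCGGG) were in 8.34% of members, 11.2% of kept peaks and 5.85% of the mirror group, a difference of -2.88 points from kept peaks (-3.72 to -2.03). The CTCF odds ratio against kept peaks was 0.710 (0.590 to 0.855) within strata but 1.03 without them. With BATF and IRF4 exchanged, the ETS and CTCF odds ratios against kept peaks turned to 1.46 and 1.40. In all, 3124 members (38.8%) held none of the 13 motifs searched, and 6091 (75.6%) held neither AP-1, AICE, EICE nor ISRE.

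**Figure D2:**
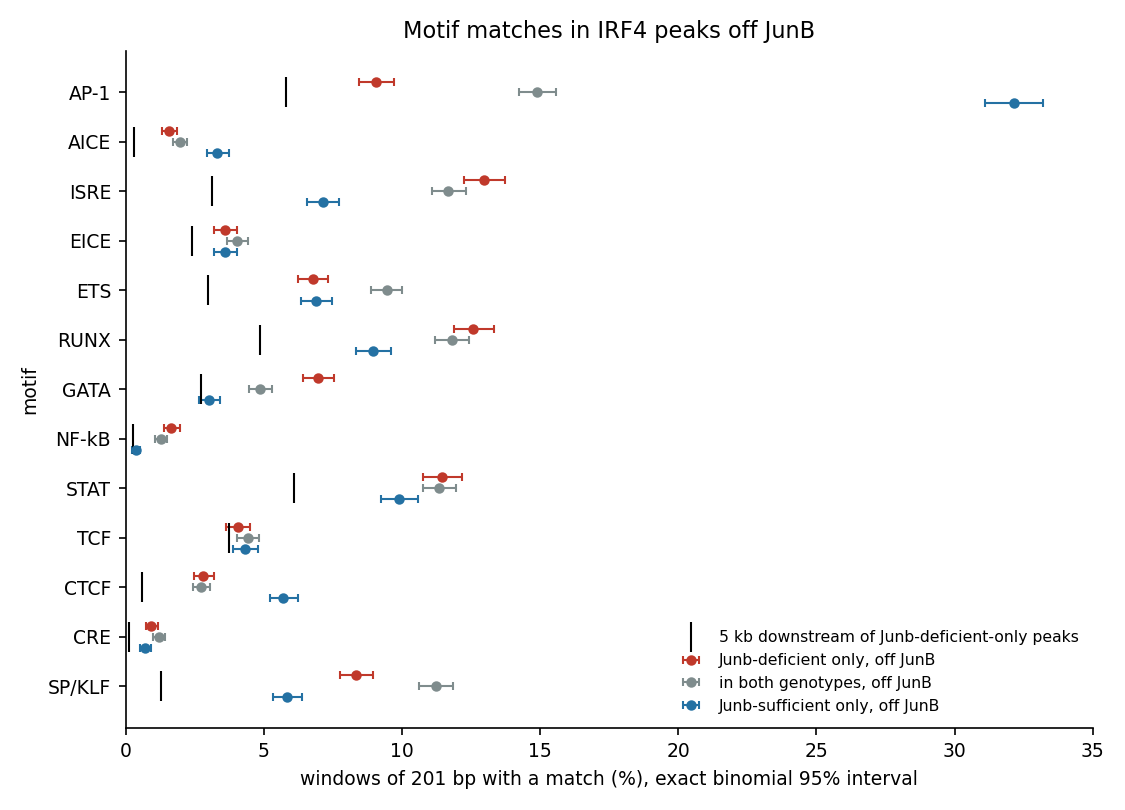
Points give the share of windows with a match (x axis, %) for 13 motifs (y axis) in members (red), kept peaks (grey) and the mirror group (blue), bars are exact binomial 95% intervals, and black ticks give the members' downstream windows. For AP-1 the red point at 9.06% lies far left of the blue at 32.1%, and for ISRE and GATA it lies to the right of both others.

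The motif shares were also read by place in the list. AP-1 was scarcest in the members that stood highest. Of 5 equal parts of the list, the first had 209 members, of which 11 held it, 5.26% with an interval from 2.66 to 9.22 that includes the 5.81% of the downstream windows. In the last part 339 of 3117 did, or 10.9% (9.80 to 12.0). GATA went the other way, from 9.57% (5.94 to 14.4) of members in the first part to 6.13% (5.31 to 7.03) in the last. Kept peaks changed in the same directions, with AP-1 from 9.46% in the first part to 19.5% in the last. Their GATA shares fell from 8.56% (6.98 to 10.4) to 3.37%, so neither trend was particular to members. ISRE shares of members ranged from 12.3% to 14.8% over the 5 parts, while those of kept peaks fell from 17.7% to 8.34%. In the mirror group AP-1 stayed between 29.4% and 37.4%.

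**Figure D3:**
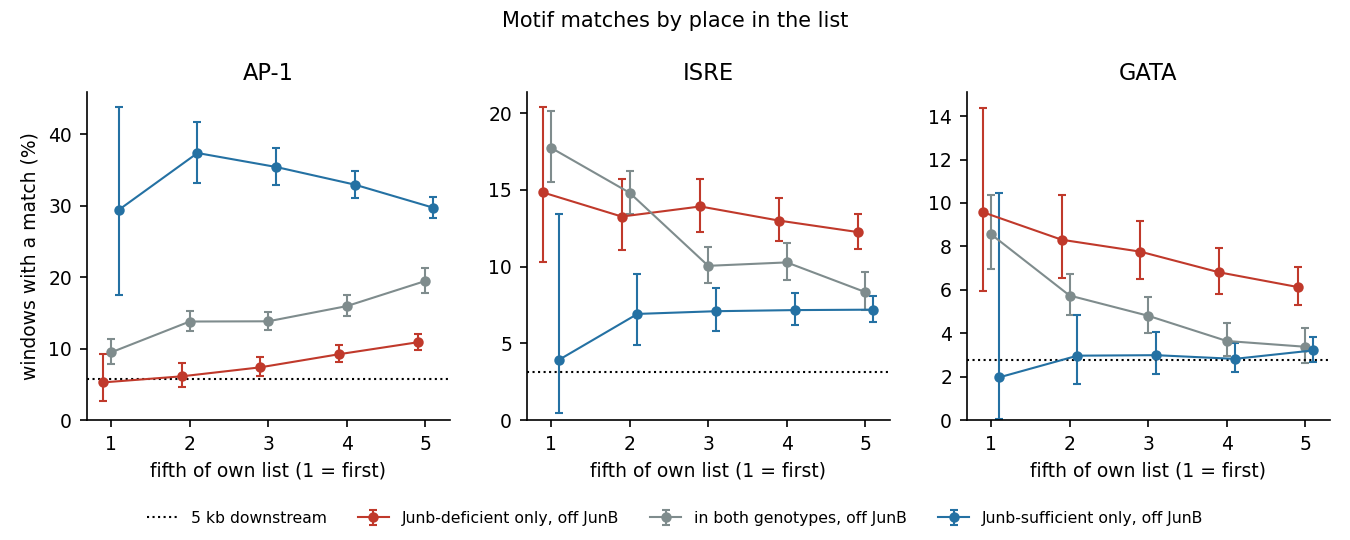
Each panel gives the share of windows with a match (y axis, %, exact binomial 95% intervals) by place in the group's own list, cut into 5 equal parts (x axis, 1 is the first) for members (red), kept peaks (grey) and the mirror group (blue), with the members' downstream windows dotted. Member AP-1 shares run from 5.26% to 10.9% and stay below both other groups in every part.

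Matches gathered at the peak centres. In members, AP-1 matches were in 3.003% and 3.62% of peaks for the 50-bp bins on either side of the centre, against 1.19% in the bin from 150 to 100 bp before the centre. ISRE matches reached 5.14% and 5.44% in the same central bins, against 1.07% in that outer bin. GATA matches reached 2.38% and 2.78%, against 0.745%. In the mirror group the central AP-1 bins held 12.6% and 14.5%, and its central GATA bins 0.785% and 0.988%. Kept peaks held GATA matches in 1.64% and 1.76% in the central bins, against 0.649% in the outer bin. The central rise was thus in both groups of Junb-deficient peaks off JunB and higher in members. Positions in peaks at JunB were not counted.

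**Figure D4:**
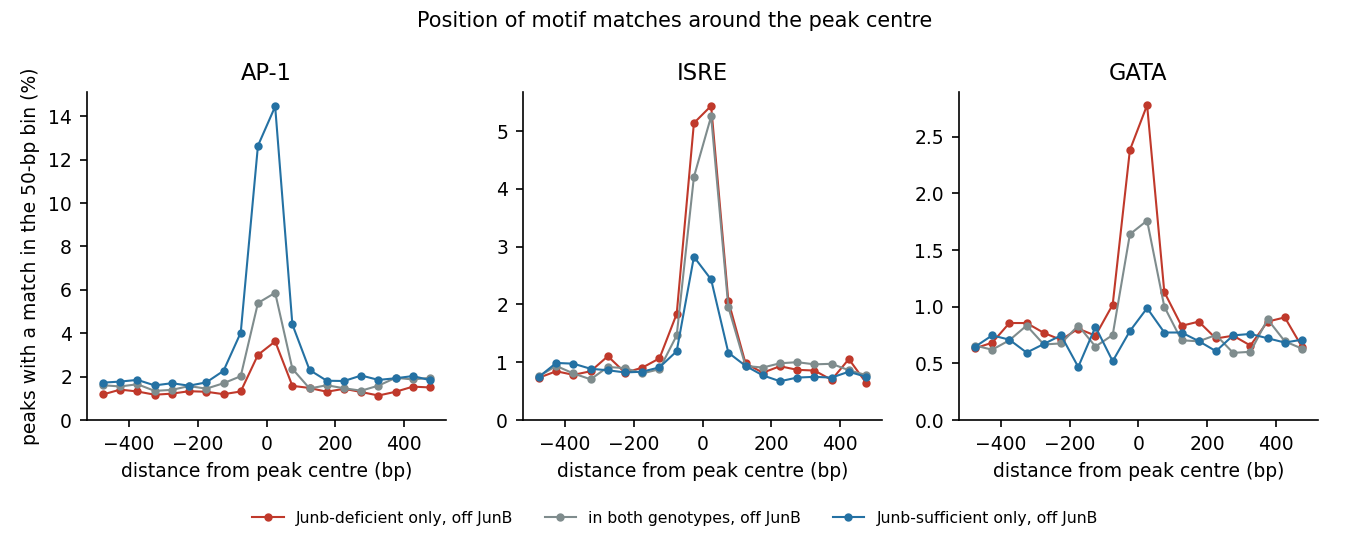
Lines give the share of peaks with a match in each 50-bp bin (y axis, %) by distance from the peak centre (x axis, bp) for members (red), kept peaks (grey) and the mirror group (blue). Member AP-1 matches peak at 3.62% and those of the mirror group at 14.5%, whereas ISRE and GATA matches peak highest in members, at 5.44% and 2.78%.

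The members at and off BATF differed in AP-1 and in several other motifs. AP-1 matches were in 46 of 221 members at BATF, or 20.8% (15.7 to 26.8), against 8.73% off BATF, a difference of 12.1 points (7.21 to 17.9). The AP-1 share of their downstream windows was 10.7% (6.94 to 15.7) for those at BATF and 5.67% for those off it. AICE matches were in 13 (5.88%, 3.17 to 9.85) against 1.44% (difference 4.44 points, 2.01 to 8.37). For ISRE, at 11.8% in members at BATF, the interval of the difference ran from -4.93 to 3.73 points and included 0. Members at BATF held fewer ETS matches (3.17%, difference -3.70 points, -5.42 to -0.428) and SP/KLF matches (4.52%, difference -3.92 points, -6.07 to -0.271). CTCF was matched in only 1 of 221 (0.452%, difference -2.42 points, -2.96 to -0.324). The interval of its odds ratio within strata of place, 0.0316 to 1.64, included equality. These differences in points were not adjusted for place or for the share at promoters.

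Members lay at promoters less often than kept peaks and more often than the mirror group. Peak centres within 1 kb of a protein-coding TSS made up 20.2% of members (19.3 to 21.1), 29.0% of kept peaks and 14.1% of the mirror group. The odds ratio against kept peaks was 0.588 (0.547 to 0.631), and with BATF and IRF4 exchanged it turned to 1.95 (1.74 to 2.20). Introns held 40.2% of members, exons 2.53% and intergenic sequence 37.0%. The median distance to a TSS was 13.4 kb. At BATF peaks 12.2% of members were promoter peaks, against 20.4% off BATF. Promoter members held AP-1 in 3.81%, ISRE in 5.47% and GATA in 1.78%, against 10.4%, 14.9% and 8.27% of other members. ETS matches went the other way, with 11.9% of promoter members against 5.47% of other members. Members were spread over the chromosomes, from 24.9% of the list's peaks on chromosome 1 to 31.5% on X, leaving out chromosome Y, where 4 of 7 peaks were members.

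Of the members, 7168 lay within 100 kb of a TSS, and they had 5252 of 22225 annotated protein-coding genes as nearest gene (23.6%). Most of these genes had 1 member (3914), and 394 had 3 or more. Of the 5252 genes, 2190 (41.7%) were also nearest to a peak of the mirror group, which is 42.3% of the 5179 genes nearest to such a peak. Those 5179 are 23.3% of all annotated genes. Longer genes have more room for peaks, and no adjustment for length was made.

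Gene lists were read by the share of their Junb-deficient IRF4 peaks that were members, which was 27.7% over all peaks within 100 kb of a TSS. Peaks at JunB count in this total but cannot be members. For the 13 resting and central T cell genes this was 15 of 111 peaks (13.5%, 7.77 to 21.3), and for the 15 effector Treg genes 11 of 87 (12.6%, 6.48 to 21.5). Both counts are descriptions, since peaks near 1 gene are not independent. The mirror group was also scarce at these 2 lists. It made up 11 of 108 Junb-sufficient peaks (10.2%) at resting and 10 of 94 (10.6%) at effector genes, against 25.3% near all genes. Among resting genes, Foxp1, which restrains T cell activation, had 4 members of 24 peaks, Bach2, a repressor of effector programs, had 3 of 28, and the IL-7 receptor gene Il7r had 2 of 9. Ccr7, Klf2 and Id3 had none.

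Among effector Treg genes the members were at 3 genes only. Klrg1, a surface receptor of mature effector Treg cells, had 4 members among 5 Junb-deficient peaks, while 2 IRF4 peaks were listed there in Junb-sufficient cells. Its members stood at places 7234, 7235, 21606 and 24185, from 0.819 kb upstream to 20.1 kb downstream of the TSS. Prdm1, which encodes the effector regulator Blimp-1, had 4 of 12, with 1 at a BATF peak 70.3 kb upstream. Icos, a costimulatory receptor, had 3 of 11, the highest of them intronic at place 2177 with RUNX, STAT and GATA matches. Ctla4, Tigit, Gzmb, Maf, Il10 and Il1rl1 had none.

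The core Treg genes had 14 members among 50 peaks (28.0%, 16.2 to 42.5), a share close to that over all genes. Runx1, a partner of Foxp3, had 4 of 17, Ikzf2, which encodes Helios, 3 of 7, and Stat5b, which relays IL-2 signals, 3 of 4, among them a promoter peak 0.107 kb upstream of the TSS. Foxp3 itself had 1 IRF4 peak in each genotype, which was no member. The only Junb-deficient peak of Il2ra, the IL-2 receptor α chain, was an intronic member at place 3331, and the 1 peak listed for that gene in Junb-sufficient cells lay elsewhere.

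Helper lineage genes had 16 members of 59 peaks (27.1%, 16.4 to 40.3), and Ifng had the most, 6 of 14. Its members lay from 40.7 kb upstream to 89.0 kb downstream of the TSS, at places 2041, 4449, 8350, 19465, 21121 and 21122. The members at places 2041 and 4449 held GATA matches. Of the 6, 4 lay within 1.5 kb of a Junb-sufficient IRF4 peak, with gaps of 237, 822, 1136 and 1415 bp. Gata3, the T helper 2 factor, had 3 of 6, all downstream, and Il5, a type 2 cytokine gene, had 2 of 3. Il4, Il13, Il21, Stat3 and Stat4 had 1 each.

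**Figure D5:**
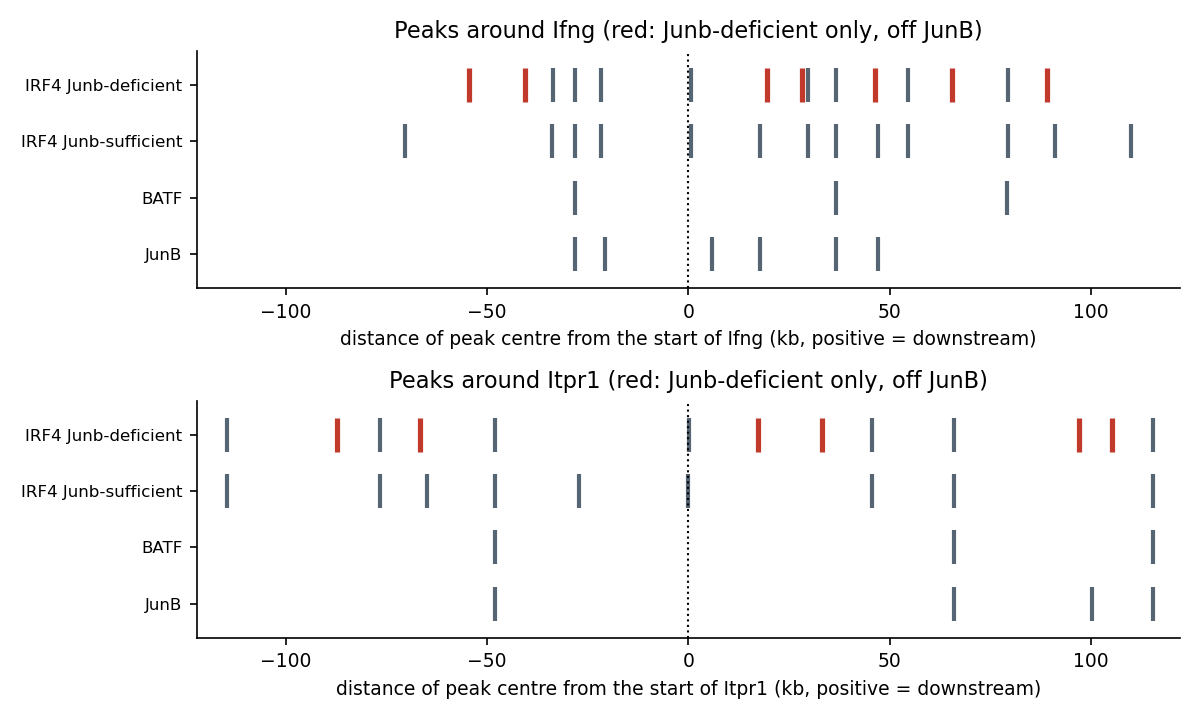
Ticks mark peak centres by distance from the first TSS of Ifng and of Itpr1 (x axis, kb) in the 4 lists (rows), with members in red. Within 120 kb of that start, Ifng had 7 members among its 15 Junb-deficient IRF4 peaks, 1 of them with another gene as nearest, and Itpr1 had 6 among 13.

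AP-1 and IRF family genes had 16 members of 53 peaks (30.2%, 18.3 to 44.3). Jun had 5 of 9. One of them was a promoter peak 0.053 kb upstream of the TSS with a GATA match, another was the AICE member printed above, and the one 55.3 kb upstream was at a BATF peak. Irf2, which represses interferon-stimulated genes, had 4 of 9, and Batf had 3 of 6, among them a promoter peak 0.163 kb upstream of the TSS with an NF-kB match. The single Junb-deficient peak of Irf7 was a member. The share of members near these genes was close to that over all peaks near genes.

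T cell receptor signalling genes had 19 members of 82 peaks (23.2%, 14.6 to 33.8). Prkcq, the kinase PKC-θ, had 5 of 16, and Cd247, the CD3 ζ chain, had 3 of 8, all intronic. Interferon-stimulated genes had 7 of 33 (21.2%, 8.98 to 38.9). Both peaks of Ifit2 were members, 1 of them 0.099 kb upstream of the TSS. The promoter member of Ifit2 held no ISRE match in its window.

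Genes of other cell types were checked in the same way. B cell genes had 4 members of 17 peaks (Cd79b, Pax5, Blk and Fcer2a, 1 each), against 19 peaks in Junb-sufficient cells. Myeloid genes had 2 of 10, cytotoxic and NK cell genes 3 of 13, and non-lymphoid genes 0 of 2, for which the upper limit of the share is 84.2%. Junb-sufficient cells had 11, 16 and 3 peaks there. Peak lists hold no expression values, so the labelled cell type was not checked by its transcripts, and other cells in the CD25 sort were not tested as a source of members.

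The gene with the most members over the whole annotation was Itpr1, which encodes an inositol trisphosphate receptor that releases calcium from the endoplasmic reticulum. It had 9 members of 23 peaks, all off BATF, 8 of them in introns, against 17 peaks in Junb-sufficient cells. There were 7 members each nearest to Etv6, an ETS repressor, Exoc4, Pde4d, a cAMP phosphodiesterase, Tmcc1, Tmcc3 and Vav3, a guanine nucleotide exchange factor. A further 11 genes had 6 each, Arhgap15, Fchsd2, Gtdc1, Ifng, Mllt3, Sdccag8, St6gal1, St8sia1, Thrb, Zfp217 and Zfp706. For Zfp706 all 6 Junb-deficient peaks were members, and for Fchsd2 6 of 9. St6gal1, a sialyltransferase, had 6 of 15, including a promoter member at place 5018.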

How the data were processed

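ChIP-seq of JunB, BATF and IRF4 in Junb-sufficient and of IRF4 in Junb-deficient activated mouse Treg cells was analysed from 4 peak lists, 1 per library. Reads were aligned to mm9 with Bowtie2 and peaks called with HOMER (4.8 in the submitters' processing notes) in each library by itself, and the recorded command names no control library. The deposited lists give positions and a score, which the authors' files set to 1 for every peak, so only positions and place in the list were used. Each peak had passed a false discovery rate of 0.001 and a 4-fold excess over the surrounding 10 kb.

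Peaks sharing at least 1 bp counted as overlapping. Positions are counted from 1. TSSs, exons and introns were taken from GENCODE for this build, and windows from its reference sequence. Downstream windows lay 5 kb from the peak centre. Shares carry exact binomial (Clopper-Pearson) and differences Newcombe 95% intervals, and odds ratios are Mantel-Haenszel estimates over 20 strata of place in the list. Computations used Python 3.11.15, NumPy 2.4.6, pandas 2.3.3, SciPy 1.17.1 and matplotlib 3.10.9, and were tested on simulated data.

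Peaks were called from 16.0 to 17.9 M tags per library after the limit of 1 per bp, and the lists keep no tag count per peak. The members, lists and motifs were chosen with earlier results of these data known. Genes named are up to 4 per list with most members, the 15 genes with most members (18 with ties), the 5 highest members of each subgroup, the highest with each motif, and the 5 largest runs. Genes without members and sole peaks were named after their values were seen. Samples were grouped by title. The alternatives are given in the closing section. RNA-seq and other assays of the study were not analysed here.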

Additional observations from a re-analysis of the deposited data

How the results depend on the processing

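No paired analysis was possible because each group had 1 library, and none could be left out. The shares depended on how peaks were matched. Members made up 31.4% of the Junb-deficient list with sharing by centres within 300 bp, 25.9% with a gap under 1000 bp counted as shared, 27.2% without those within the minimum distance, 12.2% of its first 50% and 56.0% with BATF and IRF4 exchanged. In the first 50%, shares of members were 4.86% at BATF, 18.8% at promoters, 6.61% with AP-1, 1.07% with AICE and 14.1% with ISRE. With the exchange they were 51.8% at BATF, 26.9% at promoters and 10.3% with AP-1. Promoters made up 21.8% with centres within 300 bp, 32.6% within 5 kb of a TSS and 21.5% with TSSs of all genes. Over whole peaks, AP-1, AICE, EICE and ISRE shares were 18.1%, 2.17%, 7.56% and 18.8%, within 50 bp of the centre 6.33%, 1.28%, 2.13% and 9.62%, and outside promoters (chosen after seeing the data) AP-1, AICE and ISRE shares were 10.4%, 1.87% and 14.9%.

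Of 180 values of 20 differences and odds ratios under alternatives, 161 were counted as unchanged. These kept their direction with equality still excluded, or had intervals including equality in both settings, whatever their sign. The differences from the mirror group for AP-1, ISRE and GATA kept their direction and excluded equality in all. With the exchange, odds ratios against kept peaks turned for promoters (1.95), EICE (1.47), ETS (1.46) and CTCF (1.40), and differences from the mirror group for ETS (4.21 points) and CTCF (1.89 points). CTCF also turned without strata (1.03). The interval of the AICE odds ratio against kept peaks reached 1.01 within 50 bp of the centre (0.776). That of RUNX came to include equality under 5 alternatives, that of NF-kB under 2 and that of ISRE under 1. The cause was not tested. The lists hold no tag counts, so weak peaks just under the caller's limit in 1 genotype could not be told from places without IRF4.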

Other observations

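Words of 7 bases were ranked by the ratio of their share in members to that in the mirror group, with no test, since they were chosen by these values. There were 5590 words found in enough windows. The highest ratio was that of AAAGGTC, in 7.82% of members against 2.94% of the mirror group, and next came AAGGTCA, in 9.02% against 3.61%. The latter is the core site of nuclear receptors such as the ROR and ERR families. Its share was 6.31% in kept peaks and 3.93% in the members' downstream windows, so the mirror group was near the background. Among members it was 11.6% (95% interval 10.1 to 13.2) in the first 50% of the list and 8.30% (7.63 to 9.01) in the rest, 10.6% outside promoters, and 8.86% in members without a GATA match. Members at BATF held it in 12 of 221 (5.43%, 2.84 to 9.29). The highest-placed member with the word off BATF was intronic, 24.8 kb downstream of a TSS of Bach2, at place 1570. Its mm9 window, plus strand, has the word in capitals on the other strand.
Bach2, off BATF, chr4:32359486-32359686: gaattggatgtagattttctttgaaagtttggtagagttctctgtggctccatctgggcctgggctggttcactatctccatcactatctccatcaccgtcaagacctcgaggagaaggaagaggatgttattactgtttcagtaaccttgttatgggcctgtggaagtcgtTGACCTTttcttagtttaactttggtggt

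Of the 15 highest words, 8 contained GATAA on either strand, of which CTGATAA was in 5.66% of members and 2.42% of the mirror group. Another 3 contained AGGTC on either strand, and 4 contained CG. Among the CG words, CCGCGCC was in 2.87% of members and 3.19% of kept peaks, and CGCGTGC in 1.90% and 1.82%. Of the 15 lowest, 14 contained the AP-1 core GACT or GAGT on either strand, and TGACTCA was in 6.18% of members against 26.2% of the mirror group.

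Members also stood in runs, taken as neighbours within 50 kb of each other. Most were single (4105), and 2 runs held 8. On chromosome 17 from 27136983 to 27317583, 8 members lay in 180.6 kb nearest to Ggnbp1, Itpr3, 2900010M23Rik and Ip6k3, among 11 Junb-deficient and 4 Junb-sufficient IRF4 peaks. On chromosome 9 from 7637336 to 7754386, 8 members lay in 117.1 kb around the metalloproteinase genes Mmp20 and Mmp7, where 9 peaks were listed in Junb-deficient and 1 in Junb-sufficient cells. Runs of 7 lay on chromosome 11 around Anxa6, with 11 and 6 peaks, and on chromosome 15 around Zfp706, with 7 and 4. The last, also on chromosome 15 and near Eif3h, from 51413987 to 51562755, held 7 Junb-deficient IRF4 peaks, all of them members, no Junb-sufficient IRF4 peak and 4 JunB peaks. No member of these 5 runs was at a BATF peak. Copy number or mappability differences between the libraries were not tested.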
